A study of Mus musculus with 4 samples.

Results

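The genes described are 8 Toll-like receptors, the co-receptor CD14 and the shared adaptor MyD88, read in epididymal fat of mice, a visceral depot. They were taken as a list by symbol (Tlr1, Tlr2, Tlr4, Tlr5, Tlr7, Tlr8, Tlr9, Tlr13, Cd14 and Myd88), 10 of 18820 genes with a probe set. All 10 passed the filter on low signal and are among the 11292 genes tested. Each was read by 1 probe set with a single gene symbol, so no choice between probe sets was needed. There were 4 gene arrays. KO arrays 1 and 2 held RNA of CD1d-/- mice fed the low-fat diet (10 kcal% fat), the WT HF array that of wildtype mice fed the high-fat diet (45 kcal% fat), and the WT LF array that of wildtype mice fed the low-fat diet. CD1d presents lipid antigens to natural killer T cells, and mice without it lack those cells. The null line had 10 to 12 generations of backcrossing behind it, and all groups share the C57BL/6 strain. All mice ate chow until 10 to 11 weeks of age and then 1 of these diets for 18 to 19 weeks. RNA of 4 to 6 mice per group was pooled, and it is not stated that the KO arrays came from different pools. The p-values therefore measure only the spread between these arrays, which may be technical.

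Toll-like receptors are membrane proteins that recognise molecules of microbes and, in some cases, of damaged tissue. Those of the cell surface read lipids, lipopeptides and flagellin, while those of the endosome read nucleic acids, and nearly all signal through the adaptor MyD88 to NF-κB and interferon regulatory factors. In adipose tissue they are known from resident and recruited macrophages and, for TLR4 with CD14, from fat cells as well, where the pathway has been studied in the inflammation that comes with obesity. In bulk tissue, fewer cells of a type and less RNA per cell cannot be told apart.

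The arrays checked as follows. Cd1d1, the disrupted gene, was at 3.74 and 3.98 on KO arrays 1 and 2, against 11.80 on both the WT HF and WT LF arrays (levels are log2 intensities throughout). Of 9 adipocyte markers, the 8 with a single-symbol probe set were at 11.85 or above on every array. One of them differed between arrays, Lep, the leptin gene, named after its values were seen, with 11.97 and 12.93 on the KO arrays, 12.85 on the WT HF array and 11.85 on the WT LF array. The median of all probe sets lay between 5.68 and 5.71 on the 4 arrays, and a level under it is treated as close to background. The WT LF array stood apart in 6 measured epididymal markers, whose summed intensity was 156 and 594 on KO arrays 1 and 2 and 78.3 on the WT HF array, against 7582 on the WT LF array. KO array 1 stood apart in smooth muscle markers, with a summed intensity of 9239 over 6 genes against 5100 on KO array 2, 5325 on the WT HF array and 5345 on the WT LF array. The sums of 6 mesothelial markers were 1109 and 1593 on the KO arrays, 1478 on WT HF and 1783 on WT LF. On KO array 1, 4 of them were at least 1.5-fold below WT LF and 1 above, against 5.02% and 1.93% of tested genes. The part of these tissues in the receptor levels was not tested. Relative to the WT LF array, all tested genes had a median of -0.17 and -0.02 on KO arrays 1 and 2, and 0.05 on the WT HF array.

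RefSeq promoter windows on assembly GRCm38.p6 were at hand for 7 of the 10 genes, and the 250 bases before the transcription start are used. Tlr13, Tlr8 and Tlr1 are shown because their levels differed most between arrays among the genes with a window, and Myd88 because its level was nearly flat. They lie at chrX:106143025-106143274 on the plus strand (Tlr13), chrX:167264330-167264579 on the minus strand (Tlr8), chr5:64933559-64933808 on the minus strand (Tlr1, the farther upstream of its windows) and chr9:119340019-119340268 on the minus strand (Myd88). Capitals mark GAGGAA or its reverse complement, letters found in sites of the myeloid factor PU.1. The shorter core GGAA, shared by ETS factors at large, was not searched alone, and a window without GAGGAA can hold it, as that of Myd88 does.
Tlr13: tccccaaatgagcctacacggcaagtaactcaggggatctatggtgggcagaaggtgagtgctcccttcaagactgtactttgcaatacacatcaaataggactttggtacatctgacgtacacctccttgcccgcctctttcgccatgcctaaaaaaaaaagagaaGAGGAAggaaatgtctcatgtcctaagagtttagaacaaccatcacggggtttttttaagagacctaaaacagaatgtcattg
Tlr8: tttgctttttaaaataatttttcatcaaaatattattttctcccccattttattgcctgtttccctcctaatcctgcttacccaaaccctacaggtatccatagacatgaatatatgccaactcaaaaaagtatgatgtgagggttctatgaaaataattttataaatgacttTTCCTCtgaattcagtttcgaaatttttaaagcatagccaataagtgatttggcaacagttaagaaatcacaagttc
Tlr1: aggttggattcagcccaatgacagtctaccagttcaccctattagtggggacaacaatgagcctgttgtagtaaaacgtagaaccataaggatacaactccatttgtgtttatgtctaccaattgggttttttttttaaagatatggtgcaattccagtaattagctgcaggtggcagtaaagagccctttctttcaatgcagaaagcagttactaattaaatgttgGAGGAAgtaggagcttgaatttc
Myd88: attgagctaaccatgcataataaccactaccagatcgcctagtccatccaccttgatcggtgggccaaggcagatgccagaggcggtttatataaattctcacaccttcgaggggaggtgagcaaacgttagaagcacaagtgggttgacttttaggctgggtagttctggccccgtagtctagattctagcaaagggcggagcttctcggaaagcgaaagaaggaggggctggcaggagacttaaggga
The letters GAGGAA, searched on both strands like each motif here, occurred once each in the windows of Tlr13, Tlr8, Tlr9 and in this window of Tlr1, and not in those of Tlr2, Tlr5 or Myd88 or in the second window of Tlr1. They occur in 23.3% of 32851 promoter windows of the same length. The longer GAGGAAGT, which contains GAGGAA, was present in the window of Tlr1 alone, against 2.44% of all windows. The AP-1 letters TGACTCA were found once, in the window of Tlr9, against 4.46% of windows. A match describes these letters only.

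The largest differences were those of Tlr13 and Tlr8, which are receptors of the endosome. Tlr13, which in mice recognises a stretch of bacterial ribosomal RNA, was at 5.96 and 8.98 on KO arrays 1 and 2, at 9.25 on the WT HF array and at 6.33 on the WT LF array. It was thus high on KO array 2 and on the WT HF array and low on the other pair, with the KO arrays lying on both sides of the WT LF value. Its intensity was 7.60-fold higher on the WT HF than on the WT LF array, and 8.08-fold higher on KO array 2 than on KO array 1. Only a small share of genes showed differences of that size, with 99.9% of tested genes below it in the diet comparison and 99.8% between the KO arrays.

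Tlr8, the X-linked neighbour of Tlr7 and a sensor of RNA breakdown products in humans, was at 7.08 and 9.05 on KO arrays 1 and 2, at 9.17 on the WT HF array and at 7.61 on the WT LF array. The same arrays were high and low, and the difference was 2.94-fold for the diet and 3.93-fold for KO array 2 over KO array 1. Tlr7, a receptor for single-stranded RNA, was at 6.51 and 7.63 on the KO arrays, 7.68 on the WT HF array and 6.52 on the WT LF array. KO array 1 and the WT LF array were within 0.01 of each other for this gene, and the high pair within 0.05. Tlr7 and Tlr8 have 0 genes between them on chromosome X.

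Tlr9, the receptor for unmethylated CpG DNA, had the same order of arrays with a smaller spread. Its levels were 6.77 and 7.34 on KO arrays 1 and 2, 7.40 on the WT HF array and 6.996 on the WT LF array. At 1.32-fold for the diet and 1.49-fold between the KO arrays it stayed under the 1.5-fold size used for counting. Both differences were smaller than those of Tlr1 and Tlr2, receptors of the cell surface. Tlr3, the endosomal receptor for double-stranded RNA that signals through TRIF and not MyD88, is not on the list of 10 and was at 7.26 and 7.79 on KO arrays 1 and 2, 7.83 on the WT HF array and 7.37 on the WT LF array.

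**Figure D1:**
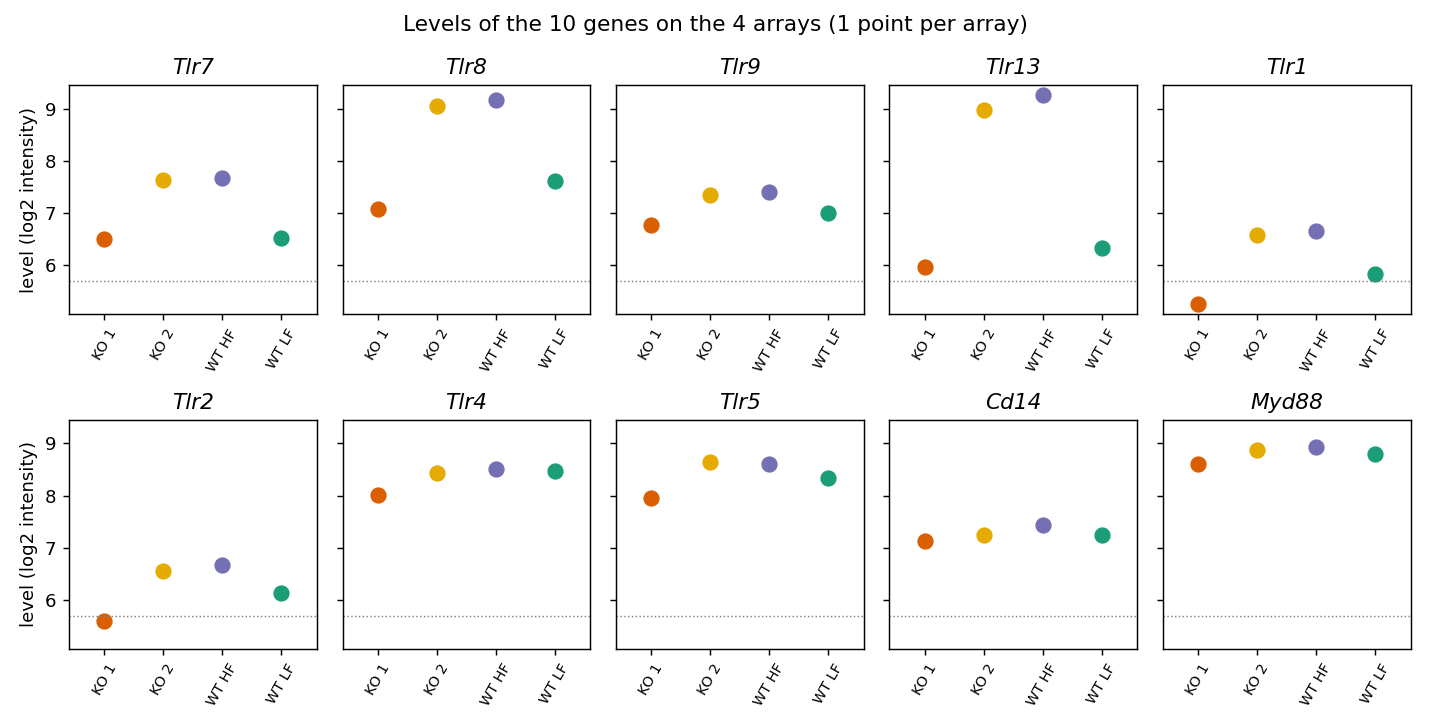
Levels of the 10 genes (y axis, log2 intensity) on KO arrays 1 and 2, the WT HF array and the WT LF array, 1 point per array. The dotted line is the mean of the arrays' medians over all probe sets. Tlr13, Tlr8, Tlr7 and Tlr1 are high on KO array 2 and on the WT HF array, while Cd14 and Myd88 lie nearly level. Tlr4 is lower on KO array 1 than on the others, which lie close together.

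Among receptors of the cell surface, the pair for bacterial lipopeptides followed the endosomal receptors and the receptor for lipopolysaccharide did not. Tlr1, which pairs with TLR2 to read triacylated lipopeptides, was at 5.26 and 6.58 on KO arrays 1 and 2, at 6.65 on the WT HF array and at 5.83 on the WT LF array. Tlr2 was at 5.59 and 6.56 on the KO arrays, 6.67 on the WT HF array and 6.14 on the WT LF array. The order of the arrays was that of Tlr13 for both genes. For the diet the differences were 1.76-fold for Tlr1 and 1.45-fold for Tlr2. On KO array 1 both were below the median of all probe sets, 5.71, and the 2.48-fold and 1.96-fold differences between the KO arrays may be understated. Tlr2 lies on chromosome 3 with 19 measured genes between it and Cd1d1, and its KO values lay on both sides of the WT LF level.

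Tlr4, the receptor for lipopolysaccharide, was at 8.01 and 8.43 on KO arrays 1 and 2, at 8.51 on the WT HF array and at 8.46 on the WT LF array. KO array 1 was the lowest, and the 3 others lay within 0.08 of one another. Tlr5, the receptor for flagellin, was at 7.94 and 8.64 on the KO arrays, 8.59 on the WT HF array and 8.34 on the WT LF array. It was the gene with the highest level on KO array 2 rather than on the WT HF array, by 0.05. KO array 2 was 1.62-fold above KO array 1, and the diet difference was 1.19-fold.

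Cd14, the lipid-binding co-receptor that hands lipopolysaccharide to TLR4, varied least of the 10. It was at 7.13 and 7.24 on KO arrays 1 and 2, at 7.43 on the WT HF array and at 7.24 on the WT LF array, a range of 0.30. Myd88, the adaptor, had a range of 0.33, with 8.61 and 8.87 on the KO arrays, 8.93 on the WT HF array and 8.79 on the WT LF array. These ranges compare with 3.29 for Tlr13 and 2.09 for Tlr8. Tlr4 stood between, with a range of 0.51, as did Tlr9 at 0.63 and Tlr5 at 0.70.

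The first comparison asks how the diet bore on these genes in wildtype fat. On the WT HF array, 4 of the 10 were at least 1.5-fold higher than on the WT LF array (Tlr1, Tlr7, Tlr8 and Tlr13), where 7.72% of all tested genes were. None of the 10 was at least 1.5-fold lower, against 3.82% of tested genes. Their median difference was 0.47, beside 0.05 over all tested genes, and all 10 were above 0 in sign, as were 58.2% of tested genes. The receptors were also grouped by place in the cell, a split not planned beforehand. The median was 1.36 for the 4 endosomal receptors, from 0.41 for Tlr9 to 2.93 for Tlr13. It was 0.39 for the 4 surface receptors, from 0.05 for Tlr4 to 0.82 for Tlr1. Tlr9 thus lay under Tlr1 and under Tlr2, at 0.53, and the endosomal Tlr3, outside the 10, was at 0.46. With 1 array per group there is no replicate check and no test.

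The second comparison sets the KO against the WT LF array. None of the 10 genes passed the test. In limma, fitted over all 11292 genes with Benjamini-Hochberg adjustment, 0.0443% of genes fell and 0% rose, and the adjusted p was 1 for each of the 10. Tlr13 averaged 7.47 ± 2.13 on the KO arrays (SD, n = 2), Tlr8 8.07 ± 1.40 and Tlr7 7.07 ± 0.79, while Cd14 averaged 7.18 ± 0.08. The largest estimate was that of Tlr13, 1.14 with a 95% interval from -1.70 to 3.99, followed by Tlr7 at 0.55 (-0.72 to 1.82) and Tlr8 at 0.45 (-1.50 to 2.40). The narrowest interval was that of Cd14, whose estimate was -0.06 (-0.83 to 0.71). An interval this wide does not show that KO and WT LF were alike. At an unadjusted p under 0.05 the fit gave 0 of the 10 genes, and 0.363% of all tested genes higher and 0.452% lower.

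The KO arrays disagreed in direction for most of these genes. KO array 1 was below the WT LF array for all 10, where 77.6% of tested genes were below. Among the 8 genes above the median of all probe sets on KO array 1, the difference lay between -0.53 for Tlr8 and -0.01 for Tlr7. Tlr1 and Tlr2 lay under that median and so close to background. Their measured differences were -0.57 and -0.55, just short of the 1.5-fold size of 0.585, and may be understated. As measured, 0 of the 10 reached 1.5-fold there, where 1.93% of tested genes were higher and 5.02% lower by that much. Relative to the median of all tested genes on that array, 8 of the 10 were lower, where 50% of tested genes are by construction, and Tlr7 and Cd14 were higher, by 0.17 and 0.06. KO array 2 was at least 1.5-fold above the WT LF array for Tlr1, Tlr7, Tlr8 and Tlr13, 4 of the 10, against 5.54% of tested genes, and 0 were that much lower, against 4.6%. At any size 8 of the 10 were above it, as were 46.8% of tested genes. In all, 8 of the 10 lay below the WT LF level on KO array 1 and above it on KO array 2, which held for 37.1% of tested genes, and the exceptions were Tlr4 and Cd14. With both KO arrays required to lie 1.5-fold or more to the same side of the WT LF array, none of the 10 counted, where 0.584% of tested genes were higher and 0.77% lower. Leaving out a KO array therefore decides the sign for these 8, as for Tlr13, at 2.65 with KO array 2 alone and -0.36 with KO array 1 alone.

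**Figure D2:**
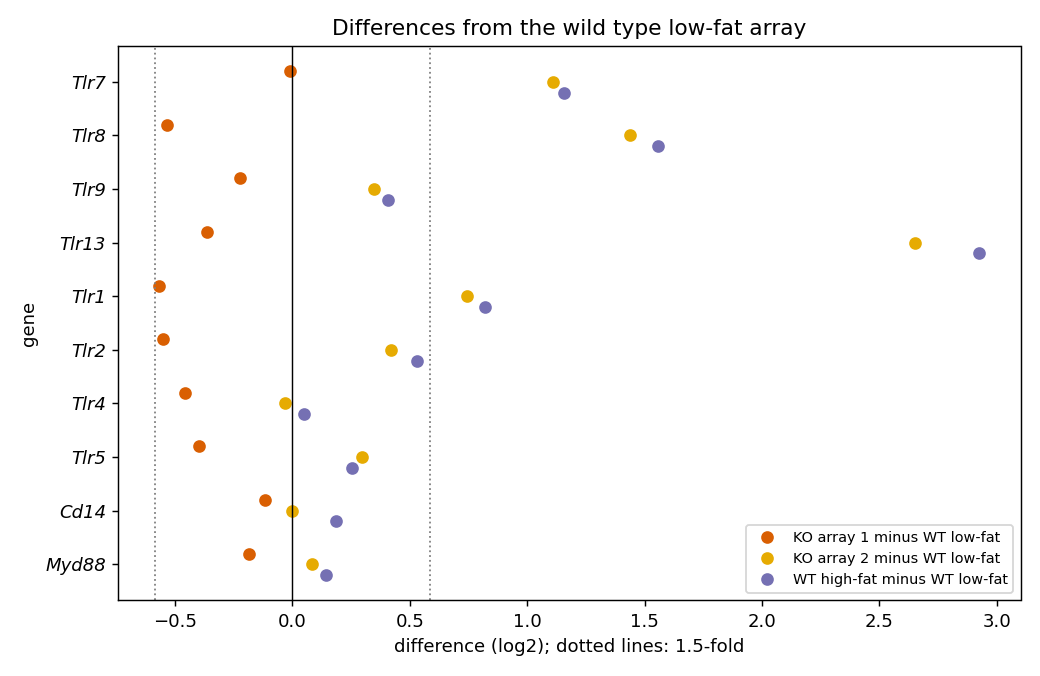
Differences from the WT LF array (x axis, log2) for each of the 10 genes (y axis), for KO array 1, KO array 2 and the WT HF array, all of which share that array as their reference. Dotted lines mark 1.5-fold. KO array 2 and the WT HF array lie close together for every gene, and KO array 1 lies at or left of 0.

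Set against the WT HF array, the KO arrays again differed from each other. KO array 1 was at least 1.5-fold lower for 7 of the 10 genes, against 20.3% of tested genes, all but Tlr4, Cd14 and Myd88, and higher for 0, against 4.56%. KO array 2 was within 1.5-fold of the WT HF array for all 10, while 2.88% of tested genes were further apart. The median absolute difference between KO array 2 and the WT HF array was 0.08 over the 10 genes and 0.12 over all tested genes, with the largest, 0.28, for Tlr13. In limma no gene of the 10 passed the test in this contrast, with an adjusted p = 0.999 for each, where 0.00886% of tested genes fell and 0% rose. At an unadjusted p under 0.05 it gave 0 of the 10, and 0.762% of all tested genes higher and 0.363% lower. The estimate for Tlr13 was -1.78 with a 95% interval from -4.63 to 1.06.

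The KO arrays, which are the replicates of 1 group, differed from each other in most of these genes. On KO array 2, 6 of the 10 genes were at least 1.5-fold above KO array 1 (Tlr1, Tlr2, Tlr5, Tlr7, Tlr8 and Tlr13), against 14.8% of tested genes, and 0 were lower, against 4.45%. The median was 0.83 beside 0.14 over all tested genes, and all 10 were above 0, as were 64.3% of tested genes. After each difference was taken relative to that median, 5 of the 10 stayed at that size, and Tlr5 was the gene that dropped out at 0.55. This contrast and the diet contrast share no array. Tlr1, Tlr7, Tlr8 and Tlr13, 4 of the 10, were at least 1.5-fold higher on each of KO array 2 and the WT HF array than on each of the other pair, against 3.96% of tested genes. At any size this held for 8 of the 10, all but Tlr4 and Cd14, and for 39.2% of tested genes. The full order of arrays seen for Tlr13 was shared by 7 of the 10 and by 26.3% of tested genes. The size order of the differences was the same in both for the leading pair, with Tlr13 first and Tlr8 second.

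**Figure D3:**
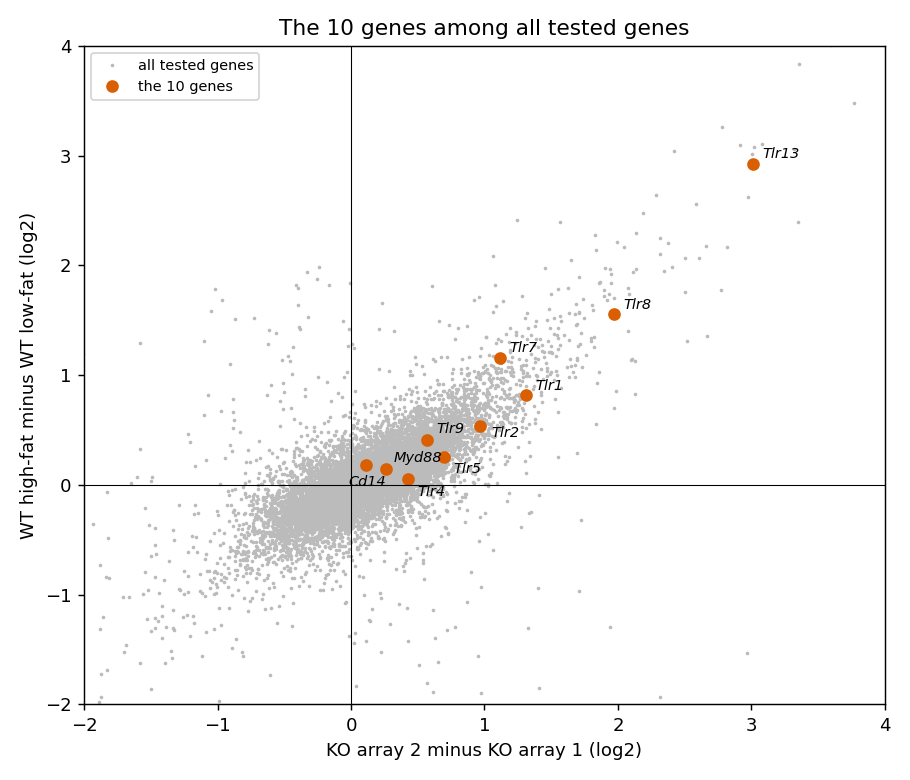
Differences between the WT HF and WT LF arrays (y axis, log2) against differences between the KO arrays (x axis, log2) for the 10 genes and for all 11292 tested genes, of which 81 lie outside the axes. Tlr13 and Tlr8 lie far up the diagonal, and Cd14, Myd88 and Tlr4 lie within the cloud of all genes.

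Most markers of macrophages were high on the same arrays as the receptors. The summed intensity of 12 macrophage markers was 8350 and 17791 on KO arrays 1 and 2 and 19361 on the WT HF array, against 10169 on the WT LF array. Between the diets 7 of the 12 were at least 1.5-fold higher, with a median of 0.70, against 7.72% of tested genes. Between the KO arrays 8 of the 12 were, with a median of 0.94, against 14.8% of tested genes. In each contrast 10 were above 0 and 2 below. Cd163 and Timd4, named after their values were seen, were the ones below 0. Cd68, a lysosomal glycoprotein of macrophages, was at 9.53 and 11.28 on the KO arrays, 11.61 on the WT HF array and 10.09 on the WT LF array. For Tlr13 and Tlr8 the differences were larger than those of all 12 macrophage markers in both contrasts, while those of Tlr4, Cd14 and Myd88 exceeded at most 3 of them. The 5 measured markers of CD11c-positive, lipid-associated macrophages had medians of 3.08 for the diet and 3.02 between the KO arrays, and 4 of them exceeded Tlr13 for the diet. Their part in the receptor levels was not tested.

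Among markers of other cells, some shared that order of arrays and others did not. Of the 3 tested monocyte markers, Ccr2, a chemokine receptor, was at 7.24 and 8.53 on KO arrays 1 and 2, 8.46 on the WT HF array and 7.71 on the WT LF array, and F13a1, a clotting factor subunit, was at 9.18 and 10.06 on the KO arrays, 9.91 on the WT HF array and 9.67 on the WT LF array. Both were high on the arrays on which Tlr13 was high, while Plac8 was highest on KO array 1, at 10.38. Clec9a, a receptor of conventional dendritic cells, was at 5.64 and 6.30 on the KO arrays, 6.50 on the WT HF array and 5.87 on the WT LF array, though the 5 tested markers of those cells had medians of 0.06 for the diet and -0.20 between the KO arrays. The 7 markers of fibroblasts and progenitors had medians of 0.45 for the diet and 0.55 between the KO arrays, and all 7 were higher on KO array 2 than on KO array 1. The part of these cells in the receptor levels was not tested. Of 8 neutrophil markers, 7 had a probe set and 1, Elane, passed the filter, at 5.95 and 5.65 on KO arrays 1 and 2, 6.08 on the WT HF array and 6.21 on the WT LF array. Siglech, a surface receptor of plasmacytoid dendritic cells, was at 5.91 and 5.01 on the KO arrays, 5.72 on the WT HF array and 5.76 on the WT LF array. Clec9a on KO array 1, and Elane and Siglech on KO array 2, were under the median of all probe sets and so close to background. The summed intensity of 5 measured B cell markers was 384 and 519 on the KO arrays and 409 on the WT HF array, against 500 on the WT LF array. Over 8 adipocyte markers the sums lay between 63386 and 64751, a narrow range beside that of the macrophage sum.

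The partners of these receptors divided in a similar way. Of 8 co-receptors and chaperones, 3 were at least 1.5-fold higher on WT HF than on WT LF, against 7.72% of tested genes. On KO array 2 relative to KO array 1, 5 were, against 14.8% of tested genes. In these contrasts 0 were that much lower, against 3.82% and 4.45%. Cd180, a Toll-like surface protein without a signalling domain, was at 6.83 and 9.65 on KO arrays 1 and 2, 9.99 on the WT HF array and 7.83 on the WT LF array. Its soluble partner Ly86 was at 8.76 and 10.20 on the KO arrays, 10.27 on the WT HF array and 9.11 on the WT LF array. Both were thus high on the arrays on which Tlr13 was high. Unc93b1, the chaperone that carries nucleic acid receptors to the endosome, was at 8.90 and 9.70 on the KO arrays, 9.74 on the WT HF array and 9.23 on the WT LF array.

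The proteins that serve TLR4 differed in how far they followed that pattern. Lbp, the plasma protein that delivers lipopolysaccharide to CD14, was at 10.92 and 12.21 on KO arrays 1 and 2, 12.12 on the WT HF array and 11.02 on the WT LF array. Ly96, the MD-2 subunit that binds lipopolysaccharide beside TLR4, was at 8.69 and 9.04 on the KO arrays, 9.34 on the WT HF array and 8.87 on the WT LF array. The chaperone Cnpy3 varied less, between 8.62 and 8.79, and the scavenger receptor Cd36 lay between 13.11 and 13.27. The general chaperone Hsp90b1 was at 10.31 and 10.94 on the KO arrays, 10.81 on the WT HF array and 10.66 on the WT LF array.

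Adaptors were divided, with medians of 0.53 for the diet and 0.74 between the KO arrays over 4 tested genes, and signalling enzymes differed less. Pik3ap1, a B cell and macrophage adaptor that links receptors to phosphoinositide 3-kinase, was at 7.31 and 8.86 on the KO arrays, 9.02 on the WT HF array and 7.78 on the WT LF array. Ticam2, the adaptor that bridges TLR4 to TRIF, was at 5.81 and 6.91 on the KO arrays, 7.05 on the WT HF array and 6.37 on the WT LF array. The adaptors Tirap and Ticam1 were within 1.5-fold in both contrasts, and Sarm1 was near background at 3.86 to 3.98. Of 11 tested kinases and ubiquitin ligases, 1 was at least 1.5-fold higher on WT HF than on WT LF, near the share of 7.72% of tested genes. It was Ikbke, a kinase of interferon induction, with 6.19 and 6.83 on the KO arrays, 7.28 on the WT HF array and 6.33 on the WT LF array. The median of that list was 0.16 for the diet and 0.14 between the KO arrays, close to 0.05 and 0.14 over all tested genes.

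Among 10 tested transcription factors, 4 were at least 1.5-fold higher on WT HF than on WT LF, against 7.72% of tested genes. These were Irf5, Irf8, Rel and Fos. Irf5, which acts below TLR7 and TLR9, was at 7.21 and 8.06 on the KO arrays, 8.20 on the WT HF array and 7.28 on the WT LF array. Irf8, a factor of myeloid identity, was at 7.30 and 8.42 on the KO arrays, 8.62 on the WT HF array and 7.68 on the WT LF array. The widely expressed Rela and Irf3 differed by 0.13 and -0.13 for the diet. Of 13 tested inhibitors, 3 were at least 1.5-fold higher on WT HF than on WT LF, against 7.72% of tested genes. They were the phosphatase genes Inpp5d and Ptpn6 and the A20-binding protein gene Tnip1. Irak3, the pseudokinase that damps MyD88 signalling in macrophages, was at 8.14 and 8.90 on the KO arrays, 8.80 on the WT HF array and 8.73 on the WT LF array.

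Target genes of the pathway were mixed, and the classic cytokines were near background. Of 20 targets 9 passed the filter. On WT HF, 4 of these were at least 1.5-fold higher than on WT LF and 1 lower, where 7.72% and 3.82% of tested genes were. On KO array 2, 6 were that much higher than on KO array 1 and 1 lower, where 14.8% and 4.45% of tested genes were. Saa3, an acute phase protein of inflamed fat, was at 6.43 and 9.78 on the KO arrays, 9.22 on the WT HF array and 6.83 on the WT LF array. Il1rn, the interleukin-1 receptor antagonist, was at 4.85 and 6.55 on the KO arrays, 7.05 on the WT HF array and 5.16 on the WT LF array. On KO array 1 and the WT LF array it was under the median of all probe sets, so its differences from them may be understated. Ptgs2, the inducible cyclooxygenase, ran the other way, with 12.41 and 6.14 on the KO arrays, 8.64 on the WT HF array and 10.73 on the WT LF array. The filtered-out cytokine genes, named after their values were seen, included Tnf, between 4.15 and 5.27, Il1b, between 4.31 and 4.43, and Il6, between 3.09 and 3.37.

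Ligands made by tissue differed from one another in their pattern. S100a8 and S100a9 encode the partners of calprotectin, a neutrophil and macrophage protein that can engage TLR4. S100a8 was at 6.66 and 7.56 on KO arrays 1 and 2, 6.45 on the WT HF array and 5.88 on the WT LF array. S100a9 was at 6.88 and 5.23 on the KO arrays, 5.18 on the WT HF array and 5.16 on the WT LF array, so it was above background on KO array 1 alone. The matrix proteoglycan gene Bgn was at 11.43 and 12.19 on the KO arrays, 12.22 on the WT HF array and 11.80 on the WT LF array. Ahsg, which encodes the fatty acid carrier fetuin-A, was at 8.22 and 7.25 on the KO arrays, 8.88 on the WT HF array and 7.19 on the WT LF array.

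Sensors of other families had medians of 0.45 for the diet and 0.70 between the KO arrays. Of 8 tested, 4 were at least 1.5-fold higher on WT HF than on WT LF and 0 lower, against 7.72% and 3.82% of tested genes. Clec7a, the receptor for fungal glucans, was at 6.05 and 7.69 on the KO arrays, 8.41 on the WT HF array and 6.36 on the WT LF array. Nod1, a cytosolic sensor of peptidoglycan, lay between 8.50 and 8.64. Across the 9 lists of other pathway and sensor genes, limma called 0 of 71 tested genes in either KO contrast. Over all tested genes it called 0.0443% against the WT LF array and 0.00886% against the WT HF array.

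**Figure D4:**
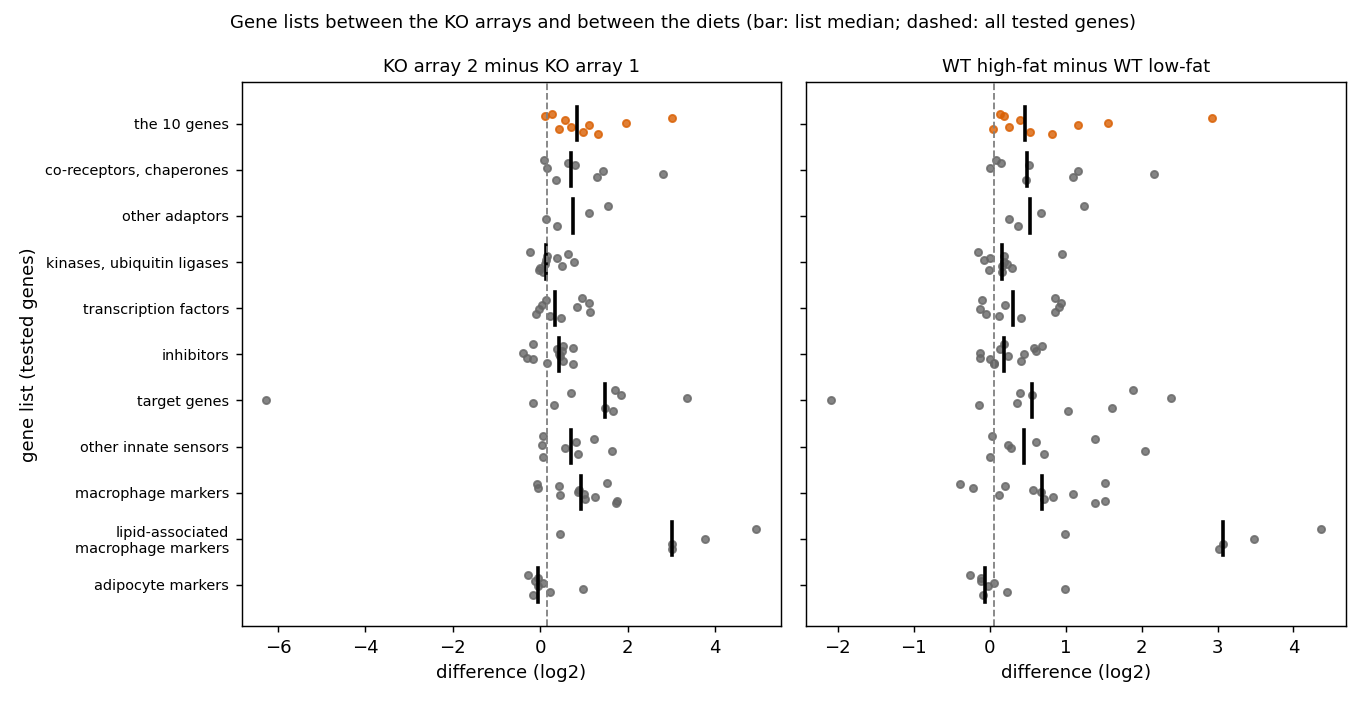
Differences between the KO arrays (left, KO array 2 minus KO array 1) and between the wildtype diets (right, WT HF minus WT LF), log2 on the x axes, with 1 point per tested gene and the lists on the y axis. Black bars are list medians and the dashed line is the median of all tested genes. The 10 genes have medians of 0.83 and 0.47, the macrophage markers 0.94 and 0.70, and the adipocyte markers -0.05 and -0.06.

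With each gene centred on its own mean, the median profile of the 10 was -0.51 and 0.28 on KO arrays 1 and 2, 0.35 on the WT HF array and -0.12 on the WT LF array. The nearest of the other tested genes were Ciao2a, Sms, Atp2b1, Adamts5, Fig4, Sema3c, Acadm and Megf9, at Euclidean distances of 0.02 to 0.03 over the 4 arrays, and they are genes of many kinds. Tlr2, Tlr5 and Tlr9 lay nearest to that profile among the 10, with 463, 518 and 589 other genes nearer. Tlr13 and Tlr8 lay far from it, with 11182 and 10424 other genes nearer.

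Tlr13 and Tlr8 were therefore also compared alone, a choice made after their values were seen. The genes most like Tlr13 over the 4 arrays were Trem2, a lipid-sensing receptor of macrophages, at a distance of 0.12, and Adam8, a metalloprotease of leukocytes, at 0.16. Il7r at 0.25 and Dhrs9 at 0.32 came next. Trem2 was at 6.52 and 9.53 on KO arrays 1 and 2, 9.94 on the WT HF array and 6.86 on the WT LF array. The genes most like Tlr8 were C3ar1, the receptor for complement fragment C3a, at 0.10, and Cd200r1, an inhibitory receptor of myeloid cells, at 0.13. Cd300c2 and Paqr9 came next, each at 0.16. C3ar1 was at 8.93 and 10.85 on the KO arrays, 11.09 on the WT HF array and 9.41 on the WT LF array.

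Of the Toll-like receptor genes outside the list, 3 were near background and were not tested. Tlr6, the partner of TLR2 for diacylated lipopeptides and the neighbour of Tlr1 on chromosome 5 with 0 genes between them, was at 4.21 and 5.01 on KO arrays 1 and 2, 5.14 on the WT HF array and 4.37 on the WT LF array. Those levels lie under the arrays' medians, and their order across the arrays is not established. Tlr11 lay between 4.32 and 5.07 and Tlr12 between 4.12 and 4.32, both receptors for profilin of parasites in mice.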

How the data were processed

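RNA of epididymal adipose tissue was read on 4 gene arrays. The deposited values are linear intensities, 1 for each probe set of an array. The submitters' processing notes name RMA and R 2.15.0. The authors' genome build is not given in the sources used here. Since log2 values had been planned for, the log2 of each intensity was taken first, with no further normalization. Intensities ran from 5.71 to 20092. Of 35556 probe sets, the 21218 with a single symbol in the platform annotation were used, and the one with the highest mean stood for each of 18820 genes. All 18787 genes matched by Entrez ID to RefSeq (GRCm38.p6) had the same symbol there. The 11292 genes at or above the 40th percentile of mean level (5.45) were tested.

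Both KO contrasts came from 1 fit of group means (limma 3.58.1, R 4.3.3) over all 4 arrays. Tests were two-sided, moderated by eBayes without a trend and adjusted by Benjamini-Hochberg, with 0.05 as the threshold. Residual degrees of freedom numbered 1, prior ones 4.62, and the prior SD was 0.28. The single WT arrays are thereby taken to spread as the KO arrays do. Comparisons of single arrays were described by size, at 1.5-fold. Precision is limited by the number of arrays.

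The 10 genes, 9 other pathway and sensor lists and 15 marker lists were chosen with earlier results of these data known. The list genes numbered 211, of which 197 had a probe set and 159 were tested. By the naming rule, the 10 genes, other receptors, partners, ligands and adaptors could all be named. From other lists it took those with the highest levels or the largest differences. Exceptions are stated. The limma fit was tested on simulated data with independent noise for each gene, and the other steps were not. Figures used matplotlib 3.10.9 in Python 3.11.15.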

Additional observations from a re-analysis of the deposited data

How the results depend on the processing

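Counts of the 10 genes moved by over 1.5 times under a stricter filter and with a KO array left out, and by at most 1.5 times under the other settings tried. The count on KO array 1 against WT LF includes Tlr1 and Tlr2 at levels close to background there. With the filter at the 60th percentile of mean level, 7 of the 10 genes passed (Tlr1, Tlr2 and Tlr7 did not), and the count at least 1.5-fold apart was 2 in place of 4 between the diets and 3 in place of 6 between the KO arrays, because fewer genes entered. The count apart on the KO arrays against the WT LF array, 0 with both arrays, was between 0 and 4 with 1 of them left out. The difference of Tlr13 between KO and WT LF ran from -0.36 to 2.65 with 1 KO array left out, values with no test since no residual degree of freedom remains. Between the KO arrays, 1674 genes were at least 1.5-fold higher and 503 lower. The split was 1308 and 689 after quantile normalization and 1050 and 894 relative to the median of all tested genes, an alternative chosen after seeing the data. Of the 10 genes, 7 were apart after median centring, 6 after quantile normalization and 5 relative to that median. At 2-fold, 3 were apart between the diets and 4 between the KO arrays. For KO against WT LF, limma called 5 of all genes, and between 0 and 6 under the alternatives. Against the WT HF array it called 1, with between 0 and 4 under the alternatives. Each of these settings called 0 of the 10 genes. No paired analysis was possible because the WT groups hold 1 array each and share no pair of replicate numbers with the KO group.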
